A study of Mus musculus with 6 samples.

Results

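Thymocyte precursors enter, cross and leave the thymus under the control of a small set of surface receptors. The genes described are 5 chemokine receptors (Ccr9, Ccr7, Ccr4, Ccr8 and Cxcr4), the egress receptor S1pr1 with its transcriptional activator Klf2, and the adhesion receptor Cd44. They were taken from a list of 9 by symbol, as genes with at least 1 probe set that the platform annotation gives to that gene alone. Of the 9, 8 were found among 12393 such genes on the array, and Cd69 is not analysed here. Where a gene had several, the probe set brightest on average was used. Ccr9 and Cd44 had further probe sets, which are given beside the first, and the other 6 genes had 1 each.

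The study asked how activation of the aryl hydrocarbon receptor (AHR) alters gene expression in immature thymocytes and in cells that leave the thymus. Its samples were CD4-CD8- (double-negative) cells of cultured fetal C57BL/6 thymus lobes, a system in which isolated lobes go on producing T cells outside the animal. Lobes taken 15 days post coitum were cultured for 6 days, to an age of 21 days post coitum. TCDD (2,3,7,8-tetrachlorodibenzo-p-dioxin), a persistent AHR agonist, was used at 10 nM. The 4 groups were emigrants with TCDD (2 arrays), emigrants with dioxane, the solvent (2 arrays), thymocytes with TCDD (1 array) and thymocytes with dioxane (1 array). The labels give 0.1% dioxane for the thymocyte sample alone. Emigrants were the cells flushed off the lobes, and thymocytes came from the ground lobes. Both were enriched by magnetic beads against CD4 and CD8 to a purity above 95%. Beads of this kind do not separate T-cell precursors from other cells that lack both markers. RNA came from pooled cells and was amplified before hybridisation. The 2 emigrant arrays of a group are called 1 and 2. These are label numbers, except that 1 emigrant array with dioxane has no number in its label and is called 1 here. Its match with emigrants with TCDD 1 is therefore not given by the labels. Nothing in the labels assigns them to separate cultures, and the p-values therefore reflect the scatter among these arrays alone, which may be technical. In pooled cells, fewer cells of a type and less RNA per cell cannot be told apart.

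Chemokine receptors are G protein-coupled receptors that move a cell up a gradient of their ligand. In the thymus, Ccr9 and its ligand Ccl25 help progenitors to settle in the epithelium, Cxcr4 with Cxcl12 holds double-negative cells in the cortex, and Ccr7 with Ccl19 and Ccl21 draws cells to the medulla. Mature cells leave by S1pr1, which senses sphingosine 1-phosphate in the blood. Klf2 switches S1pr1 on, and Cd69 removes the S1pr1 protein from the cell surface. Cd44 binds hyaluronan. It marks the earliest double-negative stages, is lost as T-cell precursors commit, and is also high on myeloid cells.

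AHR binds DNA at sites with the core GCGTG, and KLF proteins bind CACCC boxes. Promoter sequences from RefSeq (GRCm38.p6), of 250 bases before and 50 after the start site, were at hand for 6 of the 8 genes, all but S1pr1 and Ccr7. Both motifs were searched on both strands, where the core reads CACGC on the opposite strand and the box reads GGGTG. In no promoter of these genes did matches of the 2 motifs overlap. The AHR core was found in 2 of the 6 promoters, those of Ccr8 and Cxcr4, and in 32.4% of all 32851 promoters in the table. The promoters shown are those of Cd44, which had the largest differences between TCDD and dioxane, and of the 2 genes with the core, in capitals, on the strand of the gene.
Cd44, chr2:102901616-102901915, minus strand: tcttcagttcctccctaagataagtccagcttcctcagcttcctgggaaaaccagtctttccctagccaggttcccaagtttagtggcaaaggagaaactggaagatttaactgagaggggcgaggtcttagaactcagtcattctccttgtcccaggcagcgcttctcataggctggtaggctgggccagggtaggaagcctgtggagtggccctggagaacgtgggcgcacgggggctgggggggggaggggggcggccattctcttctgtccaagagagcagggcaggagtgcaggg
Ccr8, chr9:120091883-120092182, plus strand: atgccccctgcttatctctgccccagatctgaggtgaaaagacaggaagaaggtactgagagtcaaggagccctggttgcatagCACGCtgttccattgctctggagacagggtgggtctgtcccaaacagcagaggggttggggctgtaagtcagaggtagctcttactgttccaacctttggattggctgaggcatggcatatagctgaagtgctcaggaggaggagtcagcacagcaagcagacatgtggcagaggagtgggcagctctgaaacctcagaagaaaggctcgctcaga
Cxcr4, chr1:128592250-128592549, minus strand: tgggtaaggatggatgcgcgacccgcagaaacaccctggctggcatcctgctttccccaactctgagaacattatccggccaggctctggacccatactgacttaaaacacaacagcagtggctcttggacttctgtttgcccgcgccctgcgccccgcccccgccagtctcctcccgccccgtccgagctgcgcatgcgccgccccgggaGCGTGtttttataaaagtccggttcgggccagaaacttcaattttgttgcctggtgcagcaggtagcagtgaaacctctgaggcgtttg
In Ccr8 the core lay at -166 on the strand opposite to the gene, and in Cxcr4 at -39 on the strand of the gene, counted from the start site. The Cd44 window held neither motif, which says only that these letters are not in these 300 bases. The CACCC box was in the promoters of Ccr4 (-81), Ccr8 (-140), Ccr9 (-73), Cxcr4 (-219) and Klf2 (-19). That is in 5 of 6, against 57.5% of all promoters. The Ccr4 window, chr9:114496495-114496794 on the minus strand, is counted from a start site inside the gene, which is annotated at chr9:114490316-114505476. A match is a description of sequence and shows no binding.

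Values are RMA levels on the log2 scale, on which 1 unit is 2-fold, and array medians lay between 4.84 and 4.88. Levels are compared between arrays for 1 probe set, never between genes. As a guide to background, the highest of 27 Bacillus subtilis control probe sets on each array, which match no mouse gene, read 4.32 to 4.92. Signs of RNA quality differed between the groups. The 3' minus 5' difference of the actin probe sets was 3.77, 3.36 and 4.15 on the TCDD arrays (emigrants 1 and 2, thymocytes) and 3.06, 3.01 and 3.48 on their dioxane partners, and that of the Gapdh probe sets was 4.69 to 5.60 in emigrants and 5.86 and 6.10 in thymocytes. Their part in the results was not tested. The emigrant arrays numbered 1 stood apart. Each correlated best with the other (r = 0.96 over genes, 0.91 to 0.93 with the remaining 4 arrays). Of 13 measured T-lineage markers, 6 exceeded the highest control in emigrants with TCDD 1 and 8 in emigrants with dioxane 1, against 9 to 12 on the other 4 arrays. Rag1, the recombinase that cuts antigen receptor genes, and Bcl11b, the T-cell commitment factor, were below that control on both arrays numbered 1, and Rag1 also on emigrants with TCDD 2. The macrophage gene Csf1r read 12.39 and 12.59 there, and the granule enzyme gene Mpo 10.06 and 9.83, against at most 10.47 and 5.16 elsewhere. Cd3e, a chain of the T-cell receptor complex, was still above the control there, at 7.33 and 6.99. Cd3g, Dntt and Ptcra were above it too. The labels give the cell type of the emigrants, as of the lobes, as CD4-CD8- thymocytes. The 8 listed AHR target genes had a median TCDD minus dioxane difference of 0.25 between the emigrant arrays numbered 1, against 2.08 between those numbered 2 and 3.34 between the thymocyte arrays. Single targets did differ in the pair numbered 1: Scin, an actin-severing protein, read 7.06 with TCDD and 5.21 with dioxane, and Cyp1b1, a cytochrome P450, 5.90 and 4.66. Members whose values moved without the arrays numbered 1 are therefore also given without them. That pair was set apart partly by its small AHR target difference between TCDD and dioxane. For 7 of the 8 members, its TCDD minus dioxane difference was also opposite in sign to both other pairs. TCDD values without that pair are thus a description and not a separate test of TCDD. In the fits without those arrays 0% of 12393 genes were called, with 1 residual degree of freedom each. For TCDD over both sources, 4 of the 8 members had an unadjusted p under 0.05, as did 2065 of all genes. For emigrants against thymocytes, 1 of the 8 did, as did 2571 of all genes.

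**Figure D1:**
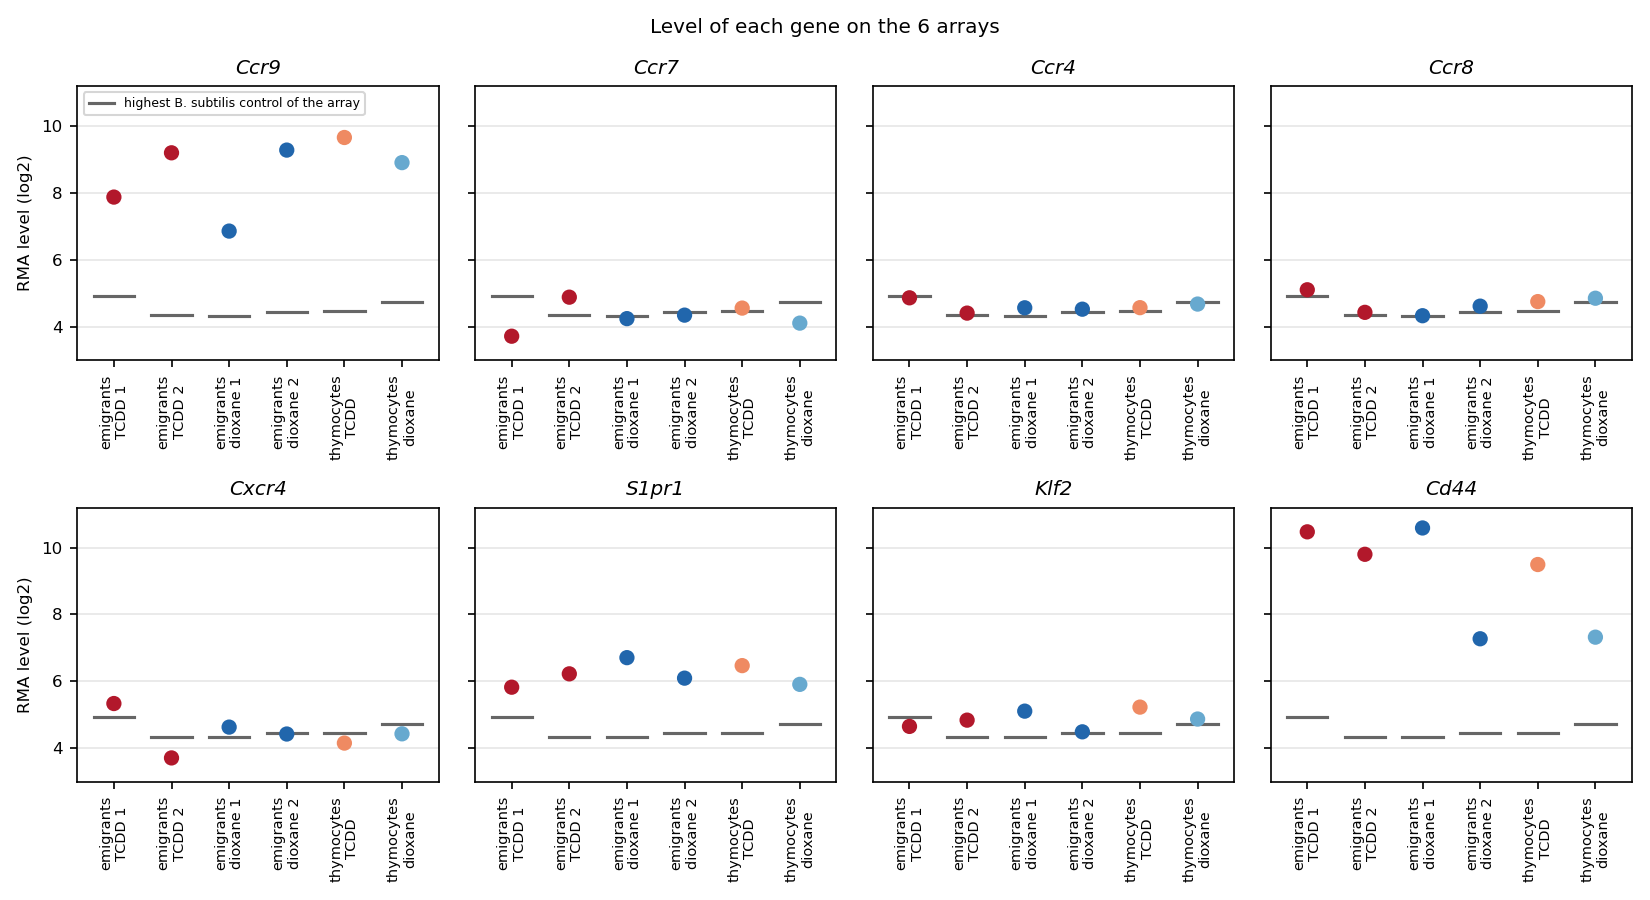
RMA level (log2, vertical axis) of the 8 genes on each of the 6 arrays, one point per array, with the highest Bacillus subtilis control of each array as a grey bar. Ccr9, S1pr1, Cd44 and Ccr8 lie above the bar on every array, Ccr8 close to it. Ccr7, Ccr4, Cxcr4 and Klf2 lie around the bar, and Cd44 spans 7.27 to 10.59.

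Ccr9 (probe set 1427419_x_at), the Ccl25 receptor, read 7.88 and 9.20 in emigrants with TCDD, 6.86 and 9.28 in emigrants with dioxane, 9.66 in thymocytes with TCDD and 8.91 in thymocytes with dioxane. The low values were those of both emigrant arrays numbered 1, and the remaining 4 arrays lay within 0.75 of each other. Neighbours in this order differed by less than the residual SD of 1.38 within groups. A further probe set, 1421920_a_at, read 5.26 and 5.95, 5.01 and 6.40, 6.78 and 5.56 on the same arrays in the same order, again lowest on the arrays numbered 1. The third, 1421919_a_at, lay below the highest control on all 6 arrays.

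TCDD minus dioxane for Ccr9 was 0.75 in thymocytes, 1.02 between the emigrant arrays numbered 1 and -0.08 between those numbered 2. The second probe set gave 1.22, 0.25 and -0.45 for the same pairs. In limma, TCDD against dioxane gave 0.47 ± 0.93 (log2, SE, n = 2 arrays each) in emigrants and 0.56 ± 0.70 (95% interval -1.18 to 2.30, n = 3 each) over both cell sources, with adjusted p of 1.00 and 0.999. The TCDD and dioxane arrays overlapped. Without the emigrant arrays numbered 1 the second value was 0.34 ± 0.25.

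Emigrants against thymocytes gave -0.98 ± 0.74 for Ccr9 (95% interval -2.82 to 0.87, adjusted p = 0.932 in limma, n = 4 and 2). This value rested on the arrays numbered 1: without them it was -0.04 ± 0.25 (adjusted p = 0.929), and without the arrays numbered 2 it was -1.92 ± 0.23 (adjusted p = 0.029, n = 2 and 2, 1 residual degree of freedom). In that last comparison 225 of 12393 genes were called (1.82%), and Ccr9 was the 1 member among them. The emigrant arrays kept there were those with the 2 lowest Ccr9 levels. The 1 residual degree of freedom measures only how far the 2 differences from thymocytes lay apart. The value is thus a description and not a separate test. Relative to thymocytes, emigrants 1 lay at -1.78 with TCDD and -2.05 with dioxane for this probe set. For 1421920_a_at they lay at -1.52 and -0.55. Over all 6 arrays 1421920_a_at gave -0.52 ± 0.51, and 1421919_a_at, below the highest control, gave 0.26 ± 0.21. On the same arrays numbered 1, the mean level of the 13 T-lineage markers was 5.25 with TCDD and 5.32 with dioxane, against 7.11 in thymocytes with TCDD and 8.01 in thymocytes with dioxane. Cd3g, another chain of that complex, read 5.97 and 6.72 there and 9.61 and 9.14 in thymocytes. The part of these markers in the Ccr9 difference was not tested.

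Cd44 (probe set 1423760_at), the hyaluronan receptor, showed the widest range, 3.32 log2 units. It read 10.47 and 9.80 in emigrants with TCDD, 10.59 and 7.27 in emigrants with dioxane, 9.49 in thymocytes with TCDD and 7.32 in thymocytes with dioxane. The arrays formed a high set, of the 3 TCDD arrays and emigrants with dioxane 1, and a low set, of the other dioxane arrays. The gap of 2.17 between thymocytes with TCDD and thymocytes with dioxane was the only one between neighbours in the order of any member that exceeded the residual SD (1.69 for Cd44). TCDD and dioxane arrays overlapped through emigrants with dioxane 1 alone.

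TCDD minus dioxane for Cd44 was 2.17 in thymocytes, -0.12 between the emigrant arrays numbered 1 and 2.53 between those numbered 2. The thymocyte value compares 1 array with 1 and has no replicate check. Limma gave 1.21 ± 1.13 in emigrants (95% interval -1.78 to 4.19, adjusted p = 1.00) and 1.53 ± 0.87 over both sources (-0.63 to 3.69, adjusted p = 0.999). Leaving out 1 array, the value over both sources lay between 0.67 (without emigrants with dioxane 2) and 2.57 (without emigrants with dioxane 1). Without the emigrant arrays numbered 1 the comparison over both sources gave 2.35 ± 0.15 in limma (95% interval 1.92 to 2.78, adjusted p = 0.128, n = 2 each, higher in 2 of 2 pairs). In that fit 0 of 12393 genes were called (0%), and 2065 had an unadjusted p under 0.05. Its 1 residual degree of freedom measures only how far the 2 pair differences lay apart. Without the emigrant arrays numbered 2 the comparison over both sources gave 1.03 ± 0.55. The second probe set of Cd44, 1452483_a_at, exceeded the highest control on 1 array and differed by 0.26, -0.32 and 0.51 in the thymocyte pair and the emigrant pairs numbered 1 and 2.

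Some markers of myeloid cells moved with Cd44 on some arrays, and some T-lineage markers moved against it. The mean level of the 18 macrophage and dendritic cell markers was 9.02 and 8.41 in emigrants with TCDD, 8.45 and 6.97 in emigrants with dioxane, 6.06 in thymocytes with TCDD and 5.71 in thymocytes with dioxane. Emigrants with dioxane 1, where Cd44 was highest of the dioxane arrays, thus had a higher mean than emigrants with dioxane 2. TCDD was above dioxane for 10 of the 18 in thymocytes (median difference 0.03), 13 in the emigrant pair numbered 1 (0.46) and 18 in the pair numbered 2 (1.61). On both thymocyte arrays 15 of the 18 exceeded the highest control. Within the thymocyte pair Fcgr3, an antibody receptor, read 7.63 with TCDD and 5.13 with dioxane, and H2-Aa, an MHC class II chain, 10.25 and 8.08, whereas Lyz2, the macrophage lysozyme gene, read 5.49 and 5.96. Dntt, the template-independent DNA polymerase of early lymphocytes, ran opposite to Cd44. It read 7.65 and 5.61 in emigrants with TCDD, 7.52 and 11.96 in emigrants with dioxane, 9.10 in thymocytes with TCDD and 12.36 in thymocytes with dioxane. Rag1 was likewise high on the 2 arrays where Cd44 was low, at 9.99 in emigrants with dioxane 2 and 9.70 in thymocytes with dioxane, and at most 7.00 on the other arrays. Of the 13 T-lineage markers, TCDD was below dioxane for 12 in thymocytes (median difference -0.77) and 10 in the emigrant pair numbered 2 (-0.54). In the pair numbered 1 it was below for 6 (0.13). Bcl11b read 6.09 with TCDD and 7.45 with dioxane in thymocytes. Cd3g went the other way there, at 9.61 and 9.14, and Ptcra differed little, at 9.83 and 9.86. The part of these markers in the Cd44 differences was not tested.

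For emigrants against thymocytes, Cd44 gave 1.13 ± 0.92 (95% interval -1.17 to 3.42, adjusted p = 0.954). It was 0.13 ± 0.15 without the arrays numbered 1 and 2.12 ± 0.55 without those numbered 2 (adjusted p = 0.170), so that the size depended on which emigrant arrays were used.

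**Figure D2:**
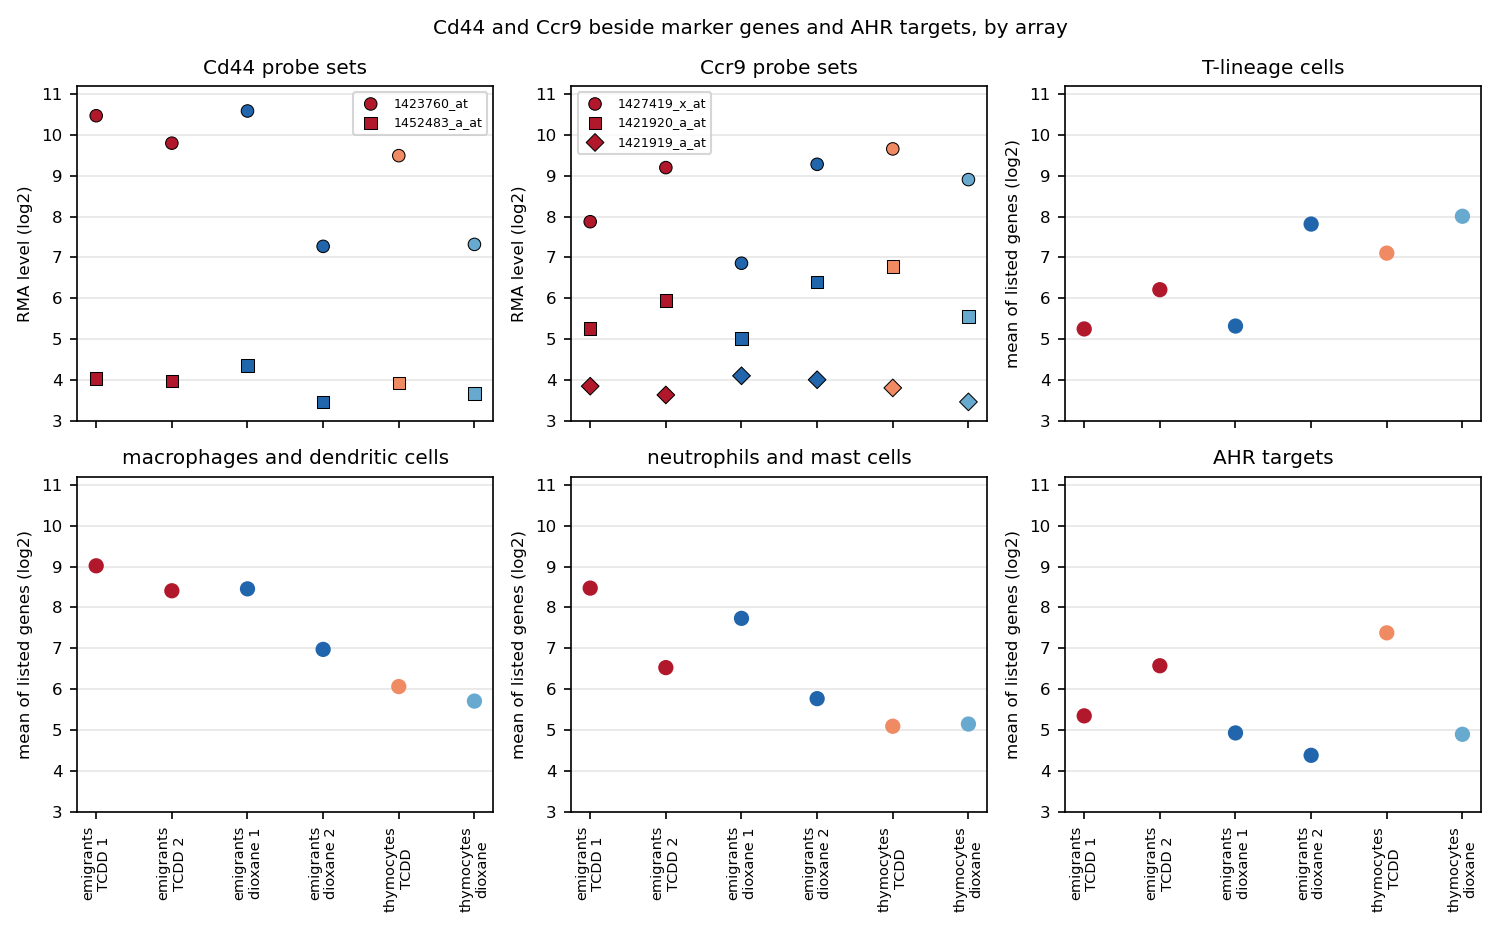
Levels (log2, vertical axes) on the 6 arrays of the Cd44 and Ccr9 probe sets (upper left and middle) and mean levels of listed genes of 3 cell classes and of AHR targets. Cd44 is low on emigrants with dioxane 2 and thymocytes with dioxane, at 7.27 and 7.32, where the T-lineage mean is highest, at 7.82 and 8.01.

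S1pr1 (1423571_at), the receptor for exit along sphingosine 1-phosphate, was above the highest control on all 6 arrays. It read 5.82 and 6.22 in emigrants with TCDD, 6.71 and 6.09 in emigrants with dioxane, 6.47 in thymocytes with TCDD and 5.91 in thymocytes with dioxane. The whole range was 0.88, no neighbours differed by more than the residual SD of 0.37, and neither emigrants and thymocytes nor TCDD and dioxane separated. TCDD minus dioxane was 0.56 in thymocytes, -0.88 in the emigrant pair numbered 1 and 0.13 in the pair numbered 2. Limma gave -0.38 ± 0.33 in emigrants (95% interval -1.24 to 0.48) and -0.06 ± 0.30 over both sources (-0.80 to 0.67), with adjusted p of 1.00 and 0.999. Without the arrays numbered 1, the value over both sources turned to 0.34 ± 0.16 (adjusted p = 0.435). Emigrants against thymocytes gave 0.02 ± 0.31 (95% interval -0.76 to 0.81, adjusted p = 0.999), so that differences of up to that size in either direction could not be resolved. It was -0.03 ± 0.16 without the arrays numbered 1.

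Klf2 (1448890_at), the zinc finger factor that activates S1pr1 in T cells, read 4.65 and 4.84 in emigrants with TCDD, 5.11 and 4.49 in emigrants with dioxane, 5.23 in thymocytes with TCDD and 4.87 in thymocytes with dioxane. On emigrants with TCDD 1 it did not exceed the highest control, and on the other 5 it did. All gaps between neighbouring arrays were smaller than the residual SD of 0.32. Its TCDD minus dioxane differences were 0.36, -0.46 and 0.35 in the thymocyte pair and the emigrant pairs numbered 1 and 2. S1pr1, Ccr7 and Cd44 had the same signs in these pairs. Emigrants against thymocytes gave -0.28 ± 0.24 for Klf2 (95% interval -0.88 to 0.32, adjusted p = 0.961 in limma), and TCDD against dioxane over both sources 0.08 ± 0.23 (-0.48 to 0.65, adjusted p = 0.999). Without the emigrant arrays numbered 1 these were -0.39 ± 0.11 (-0.71 to -0.06, adjusted p = 0.201) and 0.35 ± 0.11 (0.03 to 0.68, adjusted p = 0.273). Both rest on 1 residual degree of freedom.

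The remaining receptors were close to the controls, where RMA compresses differences. Ccr7 (1423466_at), the receptor for Ccl19 and Ccl21, read 3.71 and 4.88 in emigrants with TCDD, 4.24 and 4.34 in emigrants with dioxane, 4.55 in thymocytes with TCDD and 4.10 in thymocytes with dioxane. It exceeded the highest control on 2 arrays, emigrants with TCDD 2 and thymocytes with TCDD. Cxcr4 (1448710_at), the Cxcl12 receptor, read 5.33 and 3.71 in emigrants with TCDD, 4.63 and 4.42 in emigrants with dioxane, 4.15 in thymocytes with TCDD and 4.43 in thymocytes with dioxane. It too exceeded the control on 2 arrays, which were those of the emigrants numbered 1. The emigrants with TCDD thus held both the highest and the lowest level of Ccr7 and of Cxcr4, and the other groups lay between them.

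Ccr4 (1421655_a_at), the receptor for Ccl17 and Ccl22, read 4.86 and 4.40 in emigrants with TCDD, 4.56 and 4.52 in emigrants with dioxane, 4.57 in thymocytes with TCDD and 4.68 in thymocytes with dioxane. Ccr8 (1422291_at), the receptor for Ccl1 and in the mouse also Ccl8, read 5.10 and 4.43, 4.33 and 4.61, 4.75 and 4.85 on the arrays in that order. Ccr8 exceeded the highest control on 6 arrays and Ccr4 on 4, all but emigrants with TCDD 1 and thymocytes with dioxane. Ccr4 spanned 0.46 and Ccr8 0.78, and each was highest in emigrants with TCDD 1. For Ccr7, Cxcr4, Ccr4 and Ccr8, limma's values ranged from -0.10 to 0.16 for TCDD over both sources and from -0.18 to 0.23 for emigrants against thymocytes, and every 95% interval included 0. Without the emigrant arrays numbered 1, TCDD over both sources gave 0.49 ± 0.11 for Ccr7 (95% interval 0.16 to 0.83, adjusted p = 0.195 in limma) and -0.50 ± 0.16 for Cxcr4 (-0.97 to -0.02, adjusted p = 0.288), with -0.11 ± 0.11 for Ccr4 and -0.14 ± 0.11 for Ccr8. Emigrants against thymocytes then gave 0.28 ± 0.11 for Ccr7, -0.23 ± 0.16 for Cxcr4, -0.16 ± 0.11 for Ccr4 and -0.28 ± 0.11 for Ccr8, with adjusted p from 0.286 to 0.473. All these rest on 4 arrays and 1 residual degree of freedom.

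**Figure D3:**
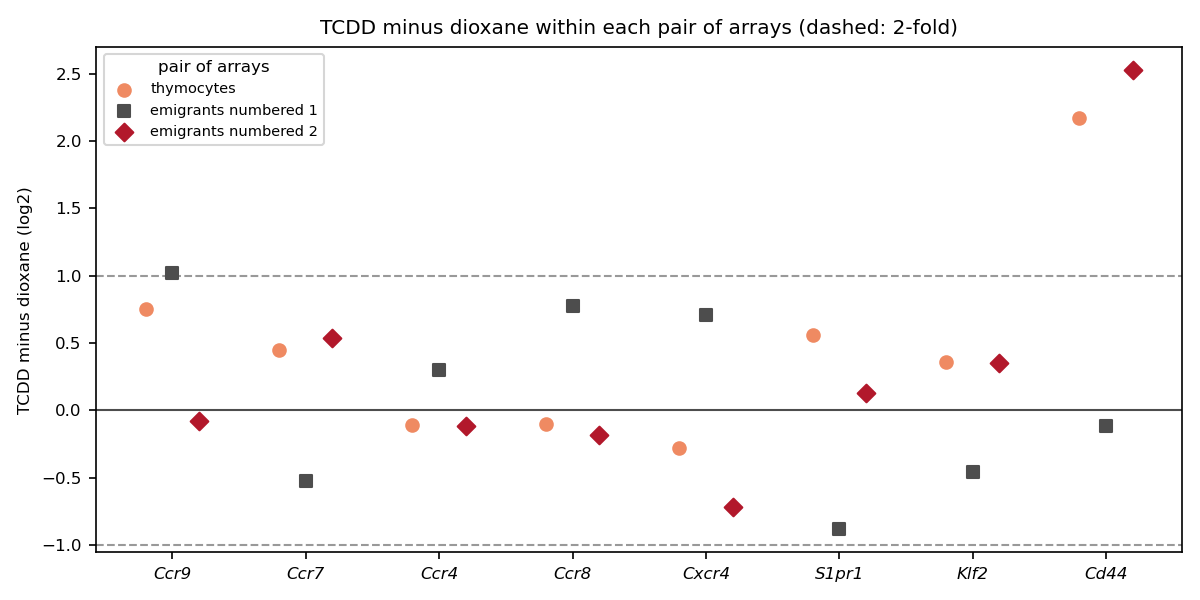
TCDD minus dioxane (log2, vertical axis) of the 8 genes within the thymocyte pair and the emigrant pairs numbered 1 and 2, with dashed lines at 2-fold. Cd44 lies at 2.17 and 2.53 in the thymocyte pair and the pair numbered 2, and for 7 genes the pair numbered 1 lies on the other side of 0 from both other pairs.

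Across the 8 genes, 0 had the same sign of TCDD minus dioxane in all 3 pairs (share of all genes not given here). For 7, all but Ccr9, the emigrant pair numbered 1 was opposite in sign to both other pairs, a pattern that 28.0% of all 12393 genes showed. The members were not drawn independently and most of them varied near background, so this count is a description. A difference of at least 2-fold was seen in 1 member in thymocytes (Cd44, background 5.62% of genes), in 1 between the emigrant arrays numbered 1 (Ccr9, 6.22%) and in 1 between those numbered 2 (Cd44, 5.59%). Arrays of 1 group also differed from each other. Emigrants 1 and 2 differed at least 2-fold in 3 members with TCDD (Ccr9, Ccr7 and Cxcr4, background 9.68%) and in 2 with dioxane (Ccr9 and Cd44, 12.5%).

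Limma called 0 of the 8 genes at an adjusted p under 0.05 in TCDD against dioxane in emigrants (0% of 12393 genes called, 255 at an unadjusted p under 0.05). The same held for TCDD against dioxane over both sources (0%, 659 unadjusted), for emigrants against thymocytes (0%, 880) and for the test whether TCDD acted differently in emigrants and in thymocytes (0%, 97). No member had an unadjusted p under 0.05 in any of these. The median difference of the 8 genes was 0.05, 0.12 and -0.03 in the first 3 comparisons, beside -0.02, -0.02 and -0.04 over all genes. With 2 or 3 residual degrees of freedom a missed threshold does not show that levels were alike.

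**Figure D4:**
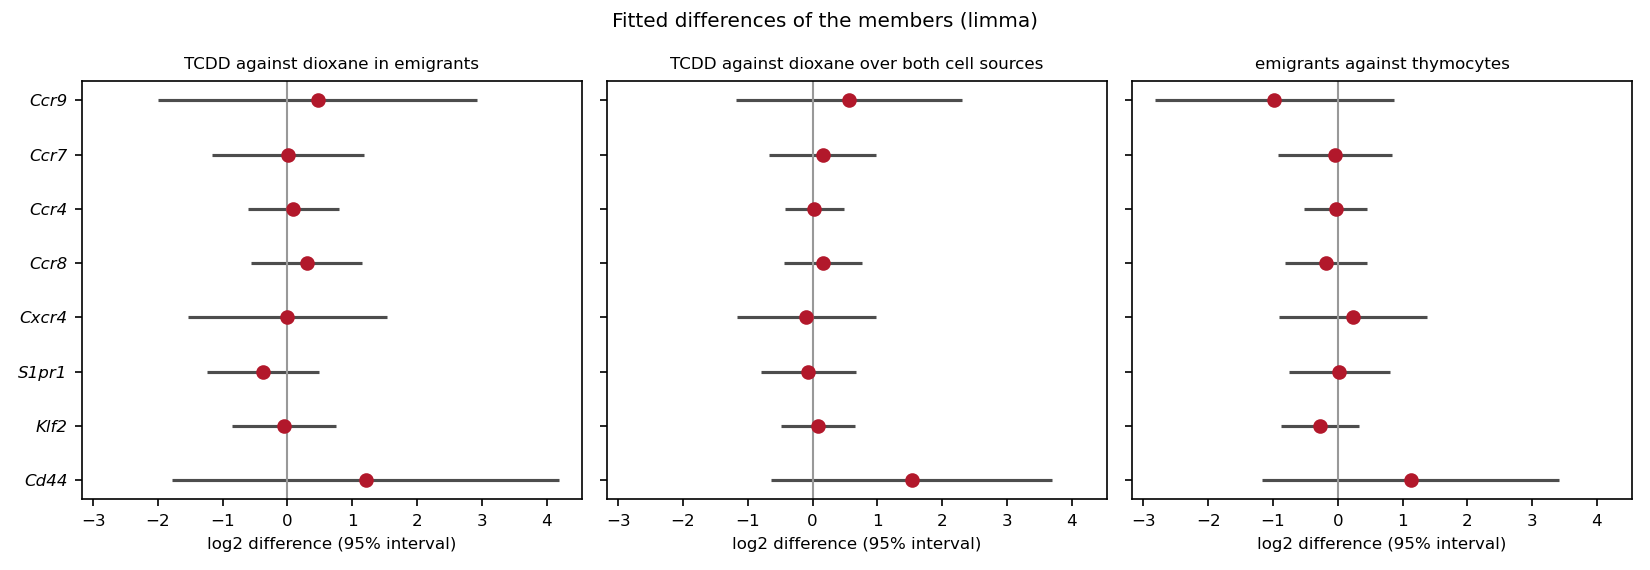
Fitted log2 differences (points) with 95% intervals (bars) of the 8 genes in 3 limma comparisons, with n = 2 against 2, 3 against 3 and 4 against 2 arrays. Every interval crosses 0, and those of Cd44 and Ccr9 are the widest.

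Other genes of the same pathways were taken from lists. Of 21 measured receptors for other chemoattractants, limma called 0 in either direction in the 3 comparisons, and their median for emigrants against thymocytes was 0.11 (-0.04 over all genes). The furthest apart were Fpr2 (formyl peptide receptor of phagocytes, 2.98 ± 1.26, adjusted p = 0.726), Ccr1 (myeloid chemokine receptor, 2.00 ± 0.64, 0.595) and Ccr2 (monocyte receptor for Ccl2, 1.47 ± 0.55, 0.676). The part of the myeloid cell markers in these differences was not tested. Cxcr6, the receptor for Cxcl16, read 4.68 and 9.87 in emigrants with TCDD, 5.03 and 8.18 in emigrants with dioxane, 7.58 in thymocytes with TCDD and 5.11 in thymocytes with dioxane. Its arrays numbered 1 were the lowest, and TCDD was above dioxane in the other 2 pairs. Of the ligands of the members, 6 were measured and 0 called, with medians of 0.12, 0.14 and -0.04 in emigrants, over both sources and for emigrants against thymocytes. Cxcl12, the Cxcr4 ligand, differed most between TCDD and dioxane (1.15 ± 0.60 in emigrants, adjusted p = 1.00). It was highest in emigrants with TCDD 2, at 7.00, where the 11 fibroblast and endothelial markers averaged 5.75, against 4.38 in emigrants with dioxane 2. In thymocytes with TCDD and with dioxane the markers averaged 5.60 and 5.68, and Cxcl12 read 5.76 and 5.44. The part of these markers in the Cxcl12 difference was not tested.

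Of 17 measured genes of sphingosine 1-phosphate synthesis, breakdown and signalling, 14 were higher and 3 lower in each of the 3 comparisons, with medians of 0.30, 0.32 and 0.32 (-0.02, -0.02 and -0.04 over all genes), and 0 were called. The comparisons share arrays. Within pairs, TCDD was above dioxane for 15 of the 17 in thymocytes (median 0.22), 10 in the emigrant pair numbered 1 (0.07) and 13 in the pair numbered 2 (0.33). Those furthest apart between emigrants and thymocytes were Coro1a (an actin regulator needed for T-cell exit, 1.38 ± 0.82), Plpp1 (a lipid phosphate phosphatase, 0.77 ± 1.03) and Sgpp1 (sphingosine 1-phosphate phosphatase, 0.71 ± 0.25), with adjusted p from 0.628 to 0.995. Of 20 KLF family genes and Klf2 regulators 0 were called, with medians of 0.01, 0.03 and -0.01. Klf9 gave 1.32 ± 0.51 for TCDD over both sources (adjusted p = 0.915) and Klf4 1.35 ± 0.87 (adjusted p = 0.999). Both were higher with TCDD in all 3 pairs. Klf4 read 8.59 and 6.30 in emigrants with TCDD, 7.42 and 4.76 in emigrants with dioxane, 7.39 in thymocytes with TCDD and 6.07 in thymocytes with dioxane. Klf9 read 9.52 and 9.07 in emigrants with TCDD, 9.03 and 7.11 in emigrants with dioxane, 9.97 in thymocytes with TCDD and 8.48 in thymocytes with dioxane.

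Of 12 homing adhesion genes 0 were called, with medians of 0.11, 0.34 and 0.20. Itgb2, the leukocyte integrin beta chain, gave 1.81 ± 0.33 for emigrants against thymocytes (adjusted p = 0.325 in limma). It read 10.05, 9.15, 9.50 and 8.95 in the 4 emigrant arrays and 8.01 and 7.20 in the thymocyte arrays. In the same comparison 18 of the 18 macrophage and dendritic cell markers were higher and 0 lower (median 2.27, 0 called). The part of these markers in the Itgb2 difference was not tested. Itga4, the alpha chain of the receptor for Vcam1, gave -0.75 ± 0.23 for TCDD over both sources (adjusted p = 0.811) and was lower with TCDD in all 3 pairs. Of 10 Cd44 partners and hyaluronan genes 0 were called, with medians of -0.17, -0.07 and -0.09. Mmp9, a matrix protease that docks on Cd44, gave 2.00 ± 0.53 for emigrants against thymocytes (adjusted p = 0.509 in limma). The part of the macrophage and dendritic cell markers in this difference was not tested either. Of 15 activation genes, which like Cd69 respond to receptor signals, 0 were called and 12 were lower in emigrants than in thymocytes (median -0.27). Egr1, an immediate-early factor, gave -1.52 ± 0.25 (adjusted p = 0.320). Il2ra, which marks the intermediate double-negative stages, gave -3.07 ± 0.78 (adjusted p = 0.501), with 3.87 and 6.35 in emigrants with TCDD, 5.03 and 6.61 in emigrants with dioxane, 8.07 in thymocytes with TCDD and 9.01 in thymocytes with dioxane.

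A search covered 3944 genes that spanned at least 1 log2 unit and exceeded the highest control on their brightest array. Clone and predicted gene names were left out. For the 4 members that also spanned at least 1 log2 unit, the genes that followed them most closely over the 6 arrays were sought there. For Cd44 they were Usp12 (Pearson r = 0.981), Isg20 (0.970) and Glul (0.969), and for Ccr9 Ndufb5 (0.997), Dusp19 (0.990) and Mettl23 (0.988). For Ccr7 they were Arl2bp (0.991), Enc1 (0.988) and Gabbr1 (0.985), and for Cxcr4 Sema4a (0.981), Polr1b (0.978) and Cinp (0.976). These correlations describe 6 arrays only, and the arrays share the marker differences given above. Usp12, a ubiquitin protease, had the same split as Cd44: 7.50 and 7.41 in emigrants with TCDD, 7.84 and 6.55 in emigrants with dioxane, 7.28 in thymocytes with TCDD and 6.39 in thymocytes with dioxane.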

How the data were processed

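The deposited values are RMA summaries on the log2 scale, made by the authors per the submitters' processing notes, with the affy package of Bioconductor per the series' design text. No software version is given in the sources used here. Of 22690 probe sets, 64 controls were left out, 691 carried several genes, 1555 none and 20380 one gene symbol, which gave 12393 genes (4956 with more than 1 probe set). All genes entered linear models in limma 3.58.1 (R 4.3.3, lmFit and eBayes), with cell source or treatment as covariate where both varied, Benjamini-Hochberg adjustment over all genes and calls at an adjusted p under 0.05. Residual degrees of freedom were 2, 3, 3 and 2 for TCDD in emigrants, TCDD over both sources, emigrants against thymocytes, and the difference of the TCDD effect. A lone array is assumed to vary like the others. The code was tested on simulated data. Described genes are all members found, at most 3 genes of each pathway or marker list by size of difference, and the 3 closest genes by Pearson correlation. The members and lists were chosen with earlier results of these data known. Same-numbered emigrants with TCDD and with dioxane deviated together from their group means (r = 0.56 over genes), but the labels do not say what a number shares, so no block was used. Alternatives were cyclic loess, median centring, an intensity trend, a filter keeping genes at or above the median level, every probe set on its own, models without the covariate, the array number as a block, and leaving out arrays. The number of arrays limits the precision. Promoter sequences are from RefSeq (GRCm38.p6).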

Additional observations from a re-analysis of the deposited data

Results flagged for a closer look

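S1pr1 was picked out because its emigrant minus thymocyte differences had opposite signs in the 2 treatments. With TCDD, emigrants 1 and 2 lay at -0.65 and -0.25 relative to thymocytes. With dioxane, they lay at 0.80 and 0.19. The difference of these effects was -0.94 ± 0.57 in limma (SE, 95% interval -2.43 to 0.55, adjusted p = 1.00) and did not pass. Each treatment has 1 thymocyte array, which both of its differences share. No group held 4 or more arrays, so no search for a single outlying array within a group was made.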

How the results depend on the processing

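Of 372 member values under the alternatives, 321 kept their sign and side of the threshold, 50 changed sign and 1 was newly called. Of the sign changes, 46 came with arrays left out. The other 4 were Cxcr4 for TCDD in emigrants with cyclic loess (0.042) and median centring (0.0026), and Ccr7 (0.014) and Ccr4 (0.030) for emigrants against thymocytes with cyclic loess. Without both emigrant arrays numbered 2, 225 genes and 1 member (Ccr9) were called for emigrants against thymocytes, and without emigrants with dioxane 2 alone 7 genes (0 to 7 over single arrays), 0 of them members. Without the arrays numbered 1, TCDD over both sources was -0.11 for Ccr4, -0.14 for Ccr8 and 0.34 for S1pr1, and emigrants against thymocytes was 0.28 for Ccr7, -0.23 for Cxcr4 and -0.03 for S1pr1. Without those numbered 2, TCDD over both sources was -0.038 for Ccr7, 0.21 for Cxcr4 and -0.050 for Klf2, and emigrants against thymocytes was 0.092 for Ccr4. The cause was not tested.

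Leaving out single arrays gave these lowest and highest values where the sign changed. For TCDD in emigrants they were -0.74 and 1.68 for Ccr9, -0.58 and 0.59 for Ccr7, -0.14 and 0.32 for Ccr4, -0.042 and 0.63 for Ccr8, -0.82 and 0.81 for Cxcr4, -0.36 and 0.26 for Klf2, and -0.45 and 2.86 for Cd44. Cd44 turned negative without emigrants with dioxane 2. For TCDD over both sources they were -0.10 and 1.28 for Ccr9, -0.14 and 0.53 for Ccr7, -0.13 and 0.14 for Ccr4, -0.067 and 0.32 for Ccr8, -0.59 and 0.34 for Cxcr4, -0.38 and 0.20 for S1pr1, and -0.055 and 0.30 for Klf2. For emigrants against thymocytes they were -0.26 and 0.25 for Ccr7, -0.15 and 0.066 for Ccr4, -0.38 and 0.016 for Ccr8, -0.13 and 0.56 for Cxcr4, and -0.45 and 0.49 for S1pr1. For the difference of the TCDD effect they were -1.50 and 0.93 for Ccr9, -1.03 and 0.14 for Ccr7, -0.031 and 0.43 for Ccr4, -0.54 and 1.09 for Cxcr4, and -2.63 and 0.69 for Cd44.

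With the replicate block, 0 genes were called for TCDD in emigrants, for TCDD over both sources and for the difference of effects, as without it. Cd44 over both sources then gave 1.53 ± 0.55 (limma adjusted p = 0.440). A block could not be fitted for emigrants against thymocytes. The filter at the median level kept 3 members, Ccr9, S1pr1 and Cd44. Genes near the controls have little signal over background, which limits what their differences show.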

Other observations

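The remaining marker lists gave these mean levels on the arrays (log2). The 15 measured neutrophil and mast cell markers averaged 8.47 and 6.53 in emigrants with TCDD, 7.73 and 5.77 in emigrants with dioxane, 5.09 in thymocytes with TCDD and 5.14 in thymocytes with dioxane. The 6 erythroid genes averaged 7.13 and 7.35 on the emigrant arrays numbered 1 with TCDD and with dioxane, and 5.51 to 5.94 on the other 4 arrays. The 9 gamma-delta and innate lymphocyte genes averaged 6.84 in thymocytes with TCDD and 5.78 in thymocytes with dioxane, with 6.50 and 6.71 in emigrants with TCDD and 6.38 and 7.01 in emigrants with dioxane. Id2, a factor of innate lymphocytes, read 8.55 in thymocytes with TCDD against 5.87 in thymocytes with dioxane, the same pair in which Cd44 differed by 2.17. The 8 thymic epithelial genes averaged 4.46 to 4.73 in emigrants and 5.00 to 5.16 in thymocytes, and the 8 B-lineage genes 4.32 to 4.49 over all arrays. Limma called 0 genes of these lists in the comparisons of all arrays (TCDD in emigrants, TCDD over both sources, emigrants against thymocytes, and the difference of the TCDD effect).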
